A study of Mus musculus with 44 samples.

Results

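The transcripts of 6 secreted regulators of inflammation were followed across the series: the IL1 agonists Il1a and Il1b, their receptor antagonist Il1rn, the cytokines Il6 and Tnf, and the anti-inflammatory cytokine Il10. They were chosen by name as a cytokine group, with earlier results of these data known, and are 6 of the 24940 genes listed in the count tables. All 6 passed the filter on low counts in each of the 4 tables. IL1α and IL1β signal through the same receptor, which the IL1 receptor antagonist occupies without activating it. In macrophages, Toll-like receptors drive these genes through NFκB, AP-1 and C/EBP factors, and IL10 acts back on the cell through STAT3 to restrain Il1b, Il6 and Tnf transcripts.

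RNA was measured by poly(A) RNA-seq in 44 libraries of bone marrow-derived macrophages (BMDMs) from adult C57BL/6 mice, in 22 groups of 2. The first table compared NCoR flox/flox cells (WT) with NCoR flox/flox, LysMCre cells (NKO), in which the myeloid LysM promoter drives removal of the nuclear receptor corepressor NCoR. Both genotypes received vehicle, KLA (Kdo2 lipid A, which activates the Toll-like receptor TLR4), poly I:C (double-stranded RNA analog, TLR3), IFNβ or IL4 for 6 h, or RANKL, the TNF family cytokine of osteoclast differentiation, for 12 h. The RGFP966 table held wild-type cells with vehicle, KLA, or KLA and RGFP966, an inhibitor of the deacetylase HDAC3. The Pgc1b table held Pgc1b flox/flox cells without or with LysM-Cre, each with vehicle or KLA. The TBK1i table held wild-type cells with DMSO, DMSO and KLA, or KLA and an inhibitor of the kinase TBK1 (TBK1i). The labels name BMDMs throughout, but the column names of the RANKL libraries call those cells osteoclasts of a time course, and which they are was not settled. The labels do not say whether the 2 libraries of a group came from separate animals. The p-values therefore measure the spread between these libraries, which may be technical.

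Libraries held 8.32 to 16.8 M gene counts, with a median of 12.2 M, so that 3 counts, the floor used here, corresponded to 0.141 to 0.500 CPM (counts scaled to a library of 1 M). Ncor1 was lower in NKO than in WT cells under each of the 6 treatments, by 1.41 to 1.78 on the log2 scale. Ppargc1b, the gene of PGC1β, was not lower with Cre in the Pgc1b table at vehicle (log2 difference -0.005 ± 0.295 SE) or KLA (0.38 ± 0.27), although Lyz2, the host locus of LysM-Cre, was lower by 0.90 and 0.87. These gene-level counts do not show the deletion, and the groups are named by their labels. The study examined PGC1β protein in both genotypes by immunoblot, which RNA counts do not address. All 6 macrophage markers were over the floor in every library. All 5 neutrophil and granulocyte precursor markers were over the floor in the RANKL libraries, with a summed level of 629 to 987 CPM against at most 22.1 CPM in any other library. All 8 libraries of the Pgc1b table carried Y-linked transcripts with at most 1 count of Xist, and those of the RGFP966 and TBK1i tables carried Xist. In the NCoR table, the NKO_KLA libraries carried Y-linked transcripts, while all other libraries carried Xist. In the column names of that table, WT_KLA, NKO_KLA and the RANKL libraries each carry a date stamp of their own, whereas the WT and NKO libraries of all other treatments share a single stamp. Ligand and date stamp therefore cannot be told apart in its KLA and RANKL comparisons with vehicle, nor can they in the interaction terms built on these, and for RANKL the time differs too.

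By position in mm10, Il1a (NM_010554) lies at chr2:129299610-129309972 on the minus strand, and Il1b (NM_008361) at chr2:129364578-129371139, also on the minus strand. Il1rn (NM_001039701) lies on the same chromosome at chr2:24345371-24351491 on the plus strand. Il6 (NM_031168) lies at chr5:30013114-30019975 (plus), Tnf (NM_013693) at chr17:35199367-35202007 (minus) and Il10 (NM_010548) at chr1:131019845-131024970 (plus). The antisense transcript Gm14023 shares 222 exon bases with Il1a, or 11.3% of the 1965 bp counted for Il1a. Counting was strand-specific by the study's methods, and the Gm14023 count was 12.9 to 18.6% of that of Il1a in the 16 libraries with at least 1000 Il1a counts. Il1bos shares 25 bases with Il1b, and its count was at most 0.294% of that of Il1b in the 16 libraries with at least 1000 Il1b counts.

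The 250 bases before the transcription start are shown for the 5 genes with a RefSeq promoter entry (GRCm38.p6, the mm10 assembly), because the factors named above act through such sites. Il10 had no entry, and of the 3 entries of Il1rn only that at the counted start is shown. Each sequence reads 5′ to 3′ on the strand of its gene, and capitals mark matches on either strand to the NFκB consensus, AP-1 (TGANTCA), CRE (TGACGTCA) or C/EBP (TTNNGNAA).
Il1a, chr2:129309973-129310222 (minus strand): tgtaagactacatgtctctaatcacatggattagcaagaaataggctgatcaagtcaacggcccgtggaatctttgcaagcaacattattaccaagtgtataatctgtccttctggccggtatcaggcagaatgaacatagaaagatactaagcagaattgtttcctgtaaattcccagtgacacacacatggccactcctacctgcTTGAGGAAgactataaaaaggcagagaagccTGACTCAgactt
Il1b, chr2:129371140-129371389 (minus strand): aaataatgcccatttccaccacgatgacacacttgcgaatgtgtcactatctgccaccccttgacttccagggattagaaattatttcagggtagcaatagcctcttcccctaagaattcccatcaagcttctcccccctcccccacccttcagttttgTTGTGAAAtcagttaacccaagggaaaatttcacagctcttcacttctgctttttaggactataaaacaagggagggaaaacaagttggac
Il1rn, chr2:24345121-24345370 (plus strand): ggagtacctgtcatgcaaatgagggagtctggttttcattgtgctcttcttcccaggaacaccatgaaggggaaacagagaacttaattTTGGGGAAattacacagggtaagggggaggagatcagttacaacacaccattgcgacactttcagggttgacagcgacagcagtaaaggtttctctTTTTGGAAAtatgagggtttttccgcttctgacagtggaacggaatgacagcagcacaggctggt
Il6, chr5:30012864-30013113 (plus strand): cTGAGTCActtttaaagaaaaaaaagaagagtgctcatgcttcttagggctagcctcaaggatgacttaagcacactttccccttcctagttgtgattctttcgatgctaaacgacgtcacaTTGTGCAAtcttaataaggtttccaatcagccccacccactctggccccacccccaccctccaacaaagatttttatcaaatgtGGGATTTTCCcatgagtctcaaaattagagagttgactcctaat
Tnf, chr17:35202008-35202257 (minus strand): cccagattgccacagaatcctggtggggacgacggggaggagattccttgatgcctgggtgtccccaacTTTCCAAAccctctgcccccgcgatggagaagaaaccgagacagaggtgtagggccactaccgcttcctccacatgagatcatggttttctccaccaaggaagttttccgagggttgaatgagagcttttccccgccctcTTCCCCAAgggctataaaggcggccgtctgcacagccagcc

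Matches to the NFκB consensus occurred in 5% of 32817 RefSeq promoters of this length. Among the 5 sequences shown, Il6 alone held one, 44 bases before the start. AP-1 matches (6.75% of promoters) stood 12 bases before the Il1a start and 249 bases before that of Il6, and no CRE match (1.55%) was present. C/EBP matches, which 36.8% of promoters hold, were found in all 5 sequences. The PU.1 core GAGGAA (23.3%) occurred in Il1a, where it overlaps the C/EBP match, and in Tnf, and the TATA box TATAAA (12.4%) in Il1a, Il1b and Tnf at 29 to 32 bases before the start. A match describes letters in this window and not binding.

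KLA raised all 6 genes in each of the 4 control sets. A gene is called here when its adjusted p is under 0.05 and its change exceeds 1.5-fold (edgeR quasi-likelihood test). In WT cells 25.4% of all genes tested were called higher with KLA, and the median log2 change was 8.33 over the 6 genes against -0.14 over all genes. Il1b was at 1.99 and 7.18 CPM in the WT vehicle libraries and at 5937 and 6099 CPM with KLA, a log2 change of 10.35 ± 0.23 (SE; adjusted p = 1.8e-14). Il1a went from 0.206 and 2.26 CPM to 815 and 836 CPM (9.37 ± 0.23, adjusted p = 2.1e-14). For neither gene did the groups overlap, but the 2 vehicle libraries differed, with 3 and 33 counts of Il1a and 29 and 105 of Il1b, so the size of the change rests on which is used. Without vehicle replicate 1 or 2, the Il1a change was 8.50 or 11.89 and the Il1b change 9.71 or 11.55.

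Il6 was at the limit of detection in WT vehicle cells, with 0 and 2 counts, and rose to 495 and 494 CPM with KLA. The ratio of its summed levels was 7209 with a 95% interval for counting error of 1995 to 59543, and without vehicle replicate 1 the fitted log2 change was 11.71 in place of 12.61. Tnf was already present at 14.5 and 16.3 CPM in vehicle and reached 2039 and 2110 CPM (log2 change 7.07 ± 0.08, adjusted p = 5.7e-55). The antagonist Il1rn started higher still, at 24.5 and 28.4 CPM, and reached 4201 and 4022 CPM (7.28 ± 0.10, adjusted p = 2e-26). Il10 had the smallest log2 change of the 6, from 2.20 and 1.85 CPM to 67.8 and 69.8 CPM (5.08 ± 0.15, adjusted p = 3.8e-39). Stromal markers (Col1a1, Col1a2 and Pdgfra) were lower, with 3 of 3 over the floor and a sum of 72.3 to 79.5 CPM in WT vehicle and 0 of 3 over it in WT_KLA, where the sum was at most 0.167 CPM. The sum of the T cell list, where Cd4 alone was over the floor, was 7.64 and 8.62 CPM in WT vehicle and 1.80 and 1.33 CPM in WT_KLA, and that of the dendritic cell list 0.688 and 0.479 against 2.78 and 3.17 CPM. The part of these markers in the results was not tested. In bulk RNA, fewer cells of a type and less RNA per cell cannot be told apart.

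In the other 3 control sets all 6 genes rose again, and 27.9% (RGFP966 table), 22.8% (Pgc1b flox) and 29.6% (DMSO) of genes were called higher. Il1b changed by 10.66, 10.87 and 10.49 on the log2 scale in these sets and Il1a by 10.56, 10.19 and 10.62. Tnf changed by 7.36, 6.81 and 8.65, and Il10 by 5.20, 4.51 and 4.83. Il1rn was the least even, with 7.59, 4.31 and 6.53. In the Pgc1b flox cells its vehicle level was 119 and 107 CPM, above the 15.7 to 28.4 CPM of the WT, RGFP966 and DMSO vehicle libraries. The former libraries carried Y-linked transcripts and the latter Xist, and the part of this was not tested. Tables were scaled separately, so levels are set across them as a description only.

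**Figure D1:**
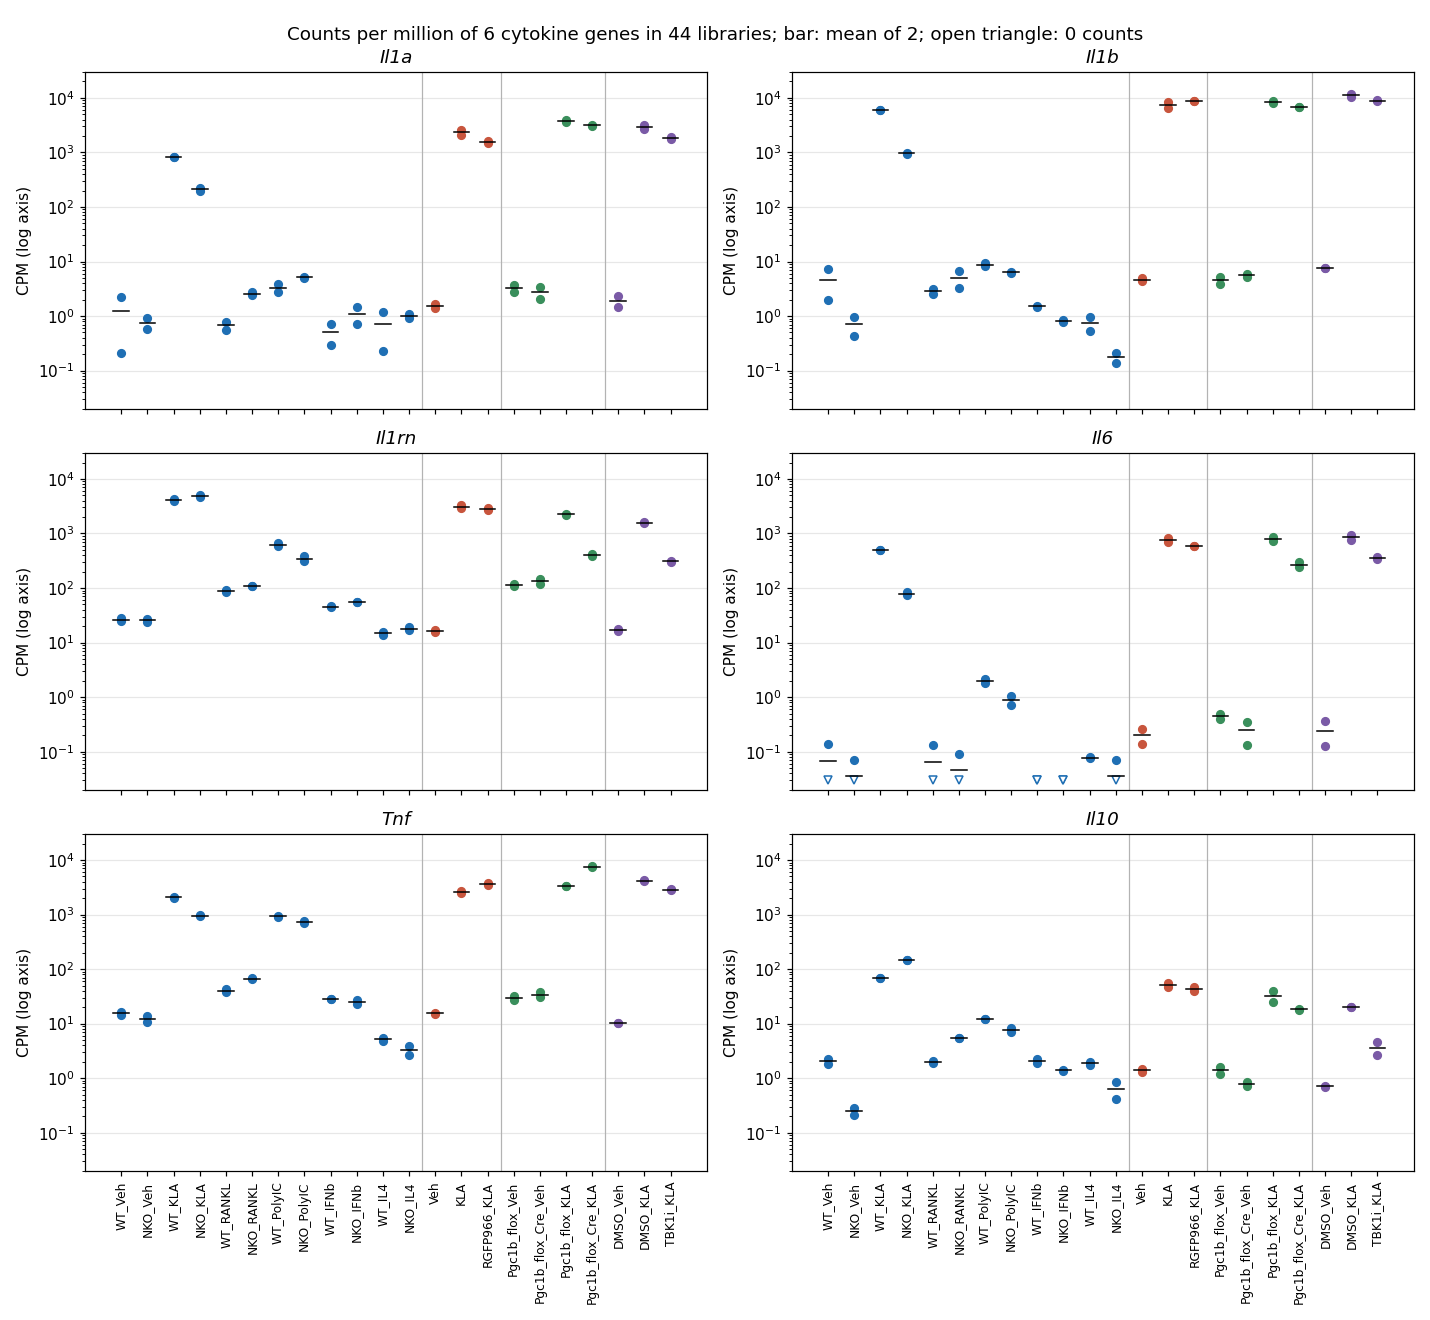
CPM (log axis) of each of the 6 genes in every library, by group; colours mark the 4 count tables and open triangles libraries with 0 counts. All 6 genes are highest in KLA groups, Il10 at 145 CPM and Il1rn at 4907 CPM in NKO_KLA, while NKO_KLA is the lowest KLA group for Il1a, Il1b, Il6 and Tnf.

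The order of the levels differed between the genes. For Il1b the highest group was DMSO_KLA (11109 ± 795 CPM, SD, n = 2), without overlap with the next group. TBK1i_KLA, RGFP966_KLA, Pgc1b_flox_KLA, KLA and Pgc1b_flox_Cre_KLA followed, each overlapping the next of these. With unscaled library totals in place of trimmed-mean (TMM) scaling, TBK1i_KLA came first. WT_KLA (6018 ± 114 CPM) and NKO_KLA (972 ± 26.3 CPM) were below them without overlap. Il1a was highest in Pgc1b_flox_KLA (3784 ± 280 CPM), then in the overlapping Pgc1b_flox_Cre_KLA (3119 ± 132) and DMSO_KLA (2958 ± 369). Il6 was highest in DMSO_KLA (851 ± 115 CPM), Pgc1b_flox_KLA (786.8 ± 89.3) and KLA (765 ± 85.8), which overlapped in that order. Tnf was highest in Pgc1b_flox_Cre_KLA (7501 ± 182 CPM), above DMSO_KLA. Il1rn and Il10 shared another order, with NKO_KLA first (4907 ± 322 and 145 ± 0.957 CPM) and WT_KLA second (4111 ± 127 and 68.8 ± 1.44 CPM), without overlap. Among the non-KLA groups, poly I:C ranked highest for Tnf (924 ± 8.51 CPM in WT), Il1rn and Il10.

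Per kilobase of transcript, which allows levels of different genes to be compared, Il1b was the most abundant of the 6 in WT_KLA cells, at 4495 CPM per kb. Il1rn stood at 1662, Tnf at 1259, Il6 at 436, Il1a at 420 and Il10 at 53 CPM per kb. In NKO_KLA cells Il1rn was first with 1983 CPM per kb, while Il1b stood at 726, Tnf at 583, Il1a at 107 and Il10 at 112 CPM per kb.

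Poly I:C raised Il1rn, Il6, Tnf and Il10 in WT cells (22.2% of genes called higher) but left Il1a and Il1b short of the threshold. Tnf reached 918 and 930 CPM (log2 change 5.91 ± 0.08, adjusted p = 1.3e-51), against 2039 and 2110 CPM with KLA. Il1rn reached 586 and 656 CPM (4.55 ± 0.10) and Il10 12.1 and 12.0 CPM (2.57 ± 0.19). Il6 was at 18 and 15 counts, a ratio to vehicle of 28.8 (95% counting interval 7.36 to 247). Il1b was at 8.21 and 9.26 CPM against 1.99 and 7.18 CPM in vehicle (log2 change 0.92, adjusted p = 0.058), and Il1a at 2.74 and 3.85 CPM (1.41, adjusted p = 0.06). Both passed without vehicle replicate 2, with log2 changes of 2.12 and 3.93. Without vehicle replicate 1 the Il6 change was 3.75 in place of 4.65, and without replicate 2 the vehicle group held 0 counts.

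In WT cells 2, 3 and 3 of the 6 genes were called with RANKL, IFNβ and IL4. RANKL raised Il1rn to 84.8 and 91.6 CPM (log2 change 1.74 ± 0.10) and Tnf to 38.0 and 42.3 CPM (1.38 ± 0.09), in a comparison in which 24.1% of genes were called higher. Date stamp, time and the cell name in the column names differ between these groups along with the ligand. The neutrophil markers given above were higher in the same libraries. Stromal markers, 3 of 3 over the floor, summed to 189 and 169 CPM in WT_RANKL against 79.5 and 72.3 CPM in vehicle, and B cell markers, 3 of 3 over the floor against 0 of 3, to 3.07 and 3.63 CPM against 0.138 and 0.137 CPM. The part of these markers in the changes was not tested. Il10 stayed at 1.90 and 2.09 CPM (log2 difference -0.02, adjusted p = 0.95). Without vehicle replicate 1, Il1a and Il1b were called lower with RANKL (-1.73 and -1.34).

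IFNβ raised Tnf to 28.3 and 28.2 CPM (0.88 ± 0.10, adjusted p = 1.7e-10) and Il1rn to 44.6 and 46.5 CPM (0.78 ± 0.11), against 4.09% of genes called higher. Il1b fell to 1.55 and 1.47 CPM (-1.60 ± 0.53, adjusted p = 0.042; 2.37% of genes called lower), a change of -2.24 without vehicle replicate 1, and a call that was lost without vehicle replicate 2 (-0.39), without IFNβ replicate 1 (-1.64) and without replicate 2 (-1.56). IL4, the ligand of alternative activation, lowered 3 of the 6 genes, against 6.46% of genes called lower. Tnf fell to 5.50 and 4.84 CPM (-1.57 ± 0.14, adjusted p = 3e-14), Il1rn to 15.9 and 13.7 CPM (-0.84 ± 0.13) and Il1b to 0.944 and 0.538 CPM (-2.62 ± 0.65, adjusted p = 0.0067). The Il1b change was -3.26 without vehicle replicate 1 and -1.42 without replicate 2, and its call was lost without IL4 replicate 2 (-2.27). Il10 was at 1.73 and 2.00 CPM with IL4, overlapping vehicle. All of these comparisons share the WT vehicle libraries.

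To ask which of these responses depend on NCoR, NKO and WT cells were compared under each treatment. With KLA, the 2 IL1 agonists, Il6 and Tnf were lower in NKO cells and Il10 was higher, while Il1rn differed little. Of all genes tested, 19% were called lower and 21% higher in this comparison, and the median log2 difference was -1.54 over the 6 genes against 0.07 over all. Il6 was at 495 and 494 CPM in WT_KLA and at 83.4 and 74.8 CPM in NKO_KLA, a log2 difference of -2.64 ± 0.08 (adjusted p = 5e-37). Il1b was at 954 and 991 CPM in NKO_KLA (-2.63 ± 0.14, adjusted p = 1.1e-09) and Il1a at 198 and 221 CPM (-1.98 ± 0.12, adjusted p = 2.7e-09). Tnf fell less, to 952 and 970 CPM (-1.11 ± 0.06, adjusted p = 9.2e-24). For these 4 genes every NKO_KLA library was below both WT_KLA libraries. The share of all genes without overlap was not counted. Il10 was at 144 and 146 CPM in NKO_KLA, above both WT_KLA libraries (1.07 ± 0.09, adjusted p = 8.4e-17). Il1rn was at 4679 and 5135 CPM (0.26 ± 0.07, adjusted p = 0.0047), also above both WT_KLA libraries but under the fold threshold. Of the stromal markers, 2 of 3 were over the floor in NKO_KLA, with a sum of 4.00 and 5.24 CPM. Dendritic cell markers summed to 13.4 and 8.95 CPM in NKO_KLA (2 of 3 over the floor) and 2.78 and 3.17 CPM in WT_KLA (1 of 3). The part of either list was not tested.

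Because genotype, date stamp and sex-linked transcripts cannot be told apart in that comparison, NKO_KLA was also set against the KLA controls of the other tables in a joint fit over 11947 genes, in which the table and the genotype cannot be told apart either. Against KLA of the RGFP966 table, Pgc1b_flox_KLA and DMSO_KLA in turn, Il1b differed by -3.24, -3.12 and -3.54, Il6 by -3.58, -3.30 and -3.46, Il1a by -3.78, -4.17 and -3.85 and Tnf by -1.72, -1.80 and -2.16. Il10 differed by 1.18, 2.18 and 2.80. All of these were called, against 43.7%, 34.9% and 39.1% of genes. The Il1rn difference of 0.35 against KLA was not called, whereas 1.14 and 1.60 against the others were. These 3 comparisons share the NKO_KLA libraries. Of their controls, Pgc1b_flox_KLA alone carried Y-linked transcripts, as NKO_KLA did.

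**Figure D2:**
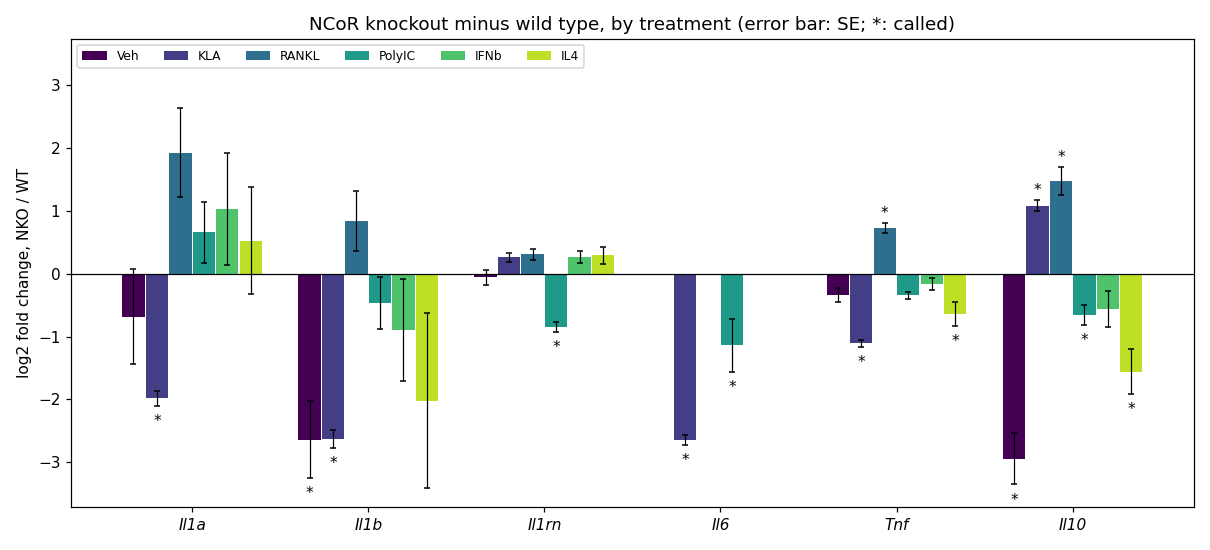
Log2 difference of NKO from WT (y axis) for each gene under each of the 6 treatments (x axis); bars give the fitted value, error bars the SE of 2 libraries per group and stars the called differences, with Il6 not drawn where both groups held 3 counts or fewer. Il10 is -2.94 at vehicle and 1.07 at KLA, and Il1a, Il1b, Il6 and Tnf are lower at KLA.

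At vehicle, 2 of the 6 genes were already lower in NKO cells, against 3.8% of all genes. Il10 was at 2.20 and 1.85 CPM in WT and at 0.215 and 0.285 CPM in NKO cells, where the count was 3 and 5, a ratio of 0.126 (95% counting interval 0.0518 to 0.264; log2 difference -2.94 ± 0.40, adjusted p = 4.2e-08). Il1b was at 0.431 and 0.970 CPM in NKO vehicle (-2.64 ± 0.61, adjusted p = 0.0074). That difference was -3.28 without WT replicate 1, -1.44 without WT replicate 2 and -3.38 without NKO replicate 2, and its call was lost without NKO replicate 1 (-2.23). Il1rn did not pass (-0.06). Osteoclast markers summed to 125 and 130 CPM in NKO vehicle (2 of 4 over the floor) and to 54.1 and 45.3 CPM in WT vehicle (2 or 3 of 4), with sums of 122 to 141 CPM in NKO and 47.5 to 61.6 CPM in WT cells under poly I:C, IFNβ and IL4. Their part in the differences between genotypes was not tested.

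The Il10 difference therefore had opposite signs at vehicle and KLA, and the responses themselves were compared by an interaction term. The rise of Il10 with KLA was larger in NKO than in WT cells by 4.02 on the log2 scale and that of Tnf was smaller by 0.77, while the terms of Il1a, Il1b, Il1rn and Il6 were not called. For all genes, 36.9% of terms were called. Within NKO cells KLA raised all 6 genes (28.4% of genes called higher), Il10 by a ratio of 570 (289 to 1321) and Il1b by 10.36 on the log2 scale, next to 10.35 in WT cells. The Il1b value was 11.11 without NKO vehicle replicate 2. Without WT vehicle replicate 2, 4 interaction terms were called. All interaction terms of this table share the vehicle libraries of both genotypes. In the KLA terms and in the change within NKO cells, NKO_KLA differs from NKO vehicle in date stamp and sex-linked transcripts as well as in ligand, and these cannot be told apart.

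With RANKL, Il10 was at 5.51 and 5.57 CPM in NKO and 1.90 and 2.09 CPM in WT cells (1.47 ± 0.22, adjusted p = 1.3e-07), and Tnf was at 65.0 and 67.3 CPM against 38.0 and 42.3 CPM (0.72 ± 0.08, adjusted p = 5.5e-11). These 2 were called higher against 6.21% of all genes. Il1a was at 2.71 and 2.43 CPM in NKO and 0.785 and 0.558 CPM in WT cells, without overlap, but missed the threshold (adjusted p = 0.052). The interaction term of NKO and RANKL was called for Il10 (4.41), Il1b (3.47) and Tnf (1.06), against 14.2% of genes, and the Il1b term was 4.11 and 2.27 without WT vehicle replicate 1 and 2, 4.21 without NKO vehicle replicate 2 and 2.83 without NKO_RANKL replicate 1. The neutrophil markers summed to 918 and 987 CPM in NKO_RANKL and to 629 and 654 CPM in WT_RANKL. Stromal markers summed to 195 and 275 against 189 and 169 CPM, the T cell list to 14.0 and 16.8 against 6.80 and 5.37 CPM and the mast cell list to 5.33 and 5.37 against 1.64 and 1.26 CPM. The part of these markers in the differences was not tested. Within NKO cells RANKL raised Il1a, Il1b, Il1rn, Tnf and Il10 (25.3% of genes called higher), although the Il1a change (1.74) was not called in any of the 4 fits that left out 1 library of its groups (1.48 to 2.14). The Il1b change within NKO cells was 2.77, and 2.13 without NKO_RANKL replicate 1 or 3.52 without the vehicle replicate 2.

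With poly I:C, 3 of the 6 genes were called lower in NKO cells. Il1rn was at 308 and 381 CPM in NKO and 586 and 656 CPM in WT cells (-0.85 ± 0.08, adjusted p = 1.3e-08), and Il10 at 7.07 and 8.19 CPM against 12.1 and 12.0 CPM (-0.66 ± 0.16, adjusted p = 0.0014), against 2.92% of genes called lower. The groups did not overlap for these or the rest of the 6 genes, and the share of all genes without overlap was not counted. Without NKO_PolyIC replicate 1 the Il10 difference was -0.56 and not called. Il6, with 10 and 7 counts in NKO and 18 and 15 in WT cells, was called at -1.14 ± 0.42 (adjusted p = 0.047), but not when any 1 library was left out (-0.90 to -1.43). Tnf differed by -0.35, under the fold threshold. Within NKO cells, poly I:C raised all 6 genes (21% of genes called higher), among them Il1b by 3.10 (3.84 without NKO vehicle replicate 2), Tnf by 5.90 and Il10 by a ratio of 30.0 (14.8 to 70.9). The interaction with poly I:C was called for Il1rn (-0.79) and Il10 (2.28), against 3.24% of genes.

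With IFNβ, 0 of the 6 genes were called between NKO and WT cells by edgeR or DESeq2, and 1, Il1rn, had an unadjusted p under 0.05, where 3.8% of all genes were called. Il10 was at 1.42 and 1.37 CPM in NKO and 2.20 and 1.91 CPM in WT cells, without overlap (log2 difference -0.56, adjusted p = 0.23). Its interaction term with IFNβ was called (2.38, against 0.604% of genes), but not without NKO vehicle replicate 1 (2.22). Within NKO cells IFNβ raised Il1rn (1.11), Tnf (1.05) and Il10 (a ratio of 5.49, 2.52 to 13.6), against 5.65% of genes called higher, and IL4 lowered Tnf (-1.88), against 5.42% called lower. With IL4, Il10 was at 0.410 and 0.850 CPM in NKO and 1.73 and 2.00 CPM in WT cells (-1.56 ± 0.35, adjusted p = 0.00074), and Tnf at 3.90 and 2.69 CPM against 5.50 and 4.84 CPM (-0.64 ± 0.19, adjusted p = 0.013), against 2.33% of genes called lower. The Il10 difference was -2.16 without NKO_IL4 replicate 2, and the call was lost without NKO_IL4 replicate 1 (-1.13). The Tnf call was lost without WT_IL4 replicate 1 (-0.55) or NKO_IL4 replicate 2 (-0.41). No interaction term with IL4 was called by edgeR or DESeq2 (0 of 6, with 1 at an unadjusted p under 0.05, where 0.604% of genes were called). Il10 was thus called lower in NKO cells at vehicle, poly I:C and IL4 and higher at KLA and RANKL.

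To ask how inhibition of HDAC3 bears on these genes, KLA with RGFP966 was compared with KLA alone. By edgeR 0 of the 6 genes were called, while 25.4% of all genes were, although all 6 had an adjusted p under 0.05, as did 51% of all genes. DESeq2 called 1, Il1a. Il1a was at 2081 and 2594 CPM with KLA and 1644 and 1514 CPM with the inhibitor (-0.57 ± 0.07, adjusted p = 2.9e-08), and Il6 at 705 and 826 against 597 and 580 CPM (-0.38, adjusted p = 3.9e-08). Tnf was higher, at 3723 and 3467 against 2485 and 2653 CPM (0.48, adjusted p = 1.3e-12). The groups did not overlap for any of the 6 genes, and the share of all genes without overlap was not counted. Il1b was at 8838 and 8820 against 6653 and 8245 CPM (0.25), Il1rn differed by -0.17 and Il10 by -0.26. Il1a crossed the fold threshold without KLA replicate 1 (-0.72) or RGFP966_KLA replicate 1 (-0.63). RGFP966_KLA replicate 2 carried a later date stamp than the rest of its table. Neutrophil markers, of which 2 of 5 were over the floor, summed to 20.6 and 22.1 CPM with RGFP966 and to 4.40 and 6.18 CPM with KLA alone, and their part was not tested. Against vehicle, all 6 genes remained called higher with KLA and RGFP966 (28% of genes).

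**Figure D3:**
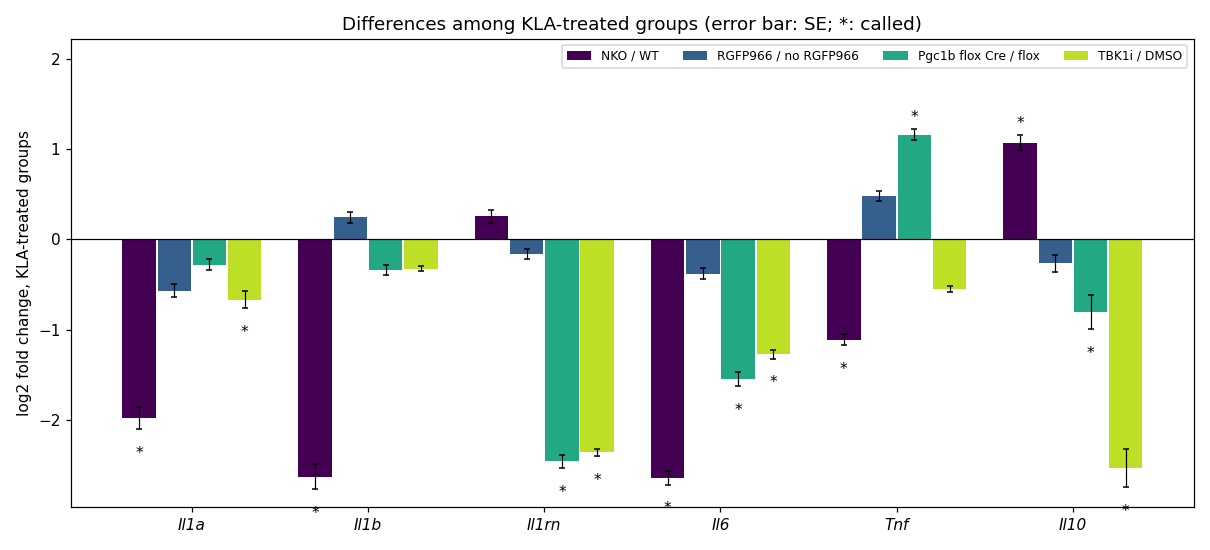
Log2 difference in KLA-treated cells (y axis) for each gene (x axis). Bars give NKO from WT, RGFP966 from KLA alone, Pgc1b flox Cre from Pgc1b flox, and TBK1i from DMSO. Error bars are SE of 2 libraries per group and stars mark called differences. NKO_KLA and WT_KLA also differ in date stamp and sex-linked transcripts. Tnf is 1.16 with Cre, and Il1rn is -2.46 with Cre and -2.36 with TBK1i.

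In the Pgc1b table, 0 of the 6 genes were called between cells with and without Cre at vehicle by edgeR or DESeq2, and 2, Il1rn and Tnf, had an unadjusted p under 0.05, where 0.303% of all genes were called. With KLA, Il1rn, Il6 and Il10 were lower and Tnf was higher with Cre (12.9% and 13.2% of genes called lower and higher). Il1rn was at 2179 and 2294 CPM in flox and 393 and 419 CPM in Cre cells (-2.46 ± 0.08, adjusted p = 4.6e-21). Il6 was at 724 and 850 CPM against 243 and 296 CPM (-1.55 ± 0.08, adjusted p = 1e-15). Tnf was at 3393 and 3317 CPM in flox and 7630 and 7372 CPM in Cre cells (1.16 ± 0.06, adjusted p = 1.6e-17). In all 3 the groups were far apart relative to the replicates. Il10 was at 38.9 and 24.7 CPM in flox and 18.8 and 17.8 CPM in Cre cells (-0.80 ± 0.19, adjusted p = 0.00081), a call that was lost without flox replicate 1 (-0.41). Il1a (-0.28) and Il1b (-0.34) stayed under the fold threshold. The T cell list, with Cd4 alone over the floor, summed to 15.02 and 16.07 CPM in Cre and 5.93 and 7.29 CPM in flox cells, and the dendritic cell list to 10.5 and 7.93 against 5.72 and 4.27 CPM. Their part was not tested.

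As Ppargc1b counts did not fall with Cre, these differences are between the labelled genotypes. Cre cells still raised all 6 genes with KLA (19.2% of genes called higher), with Il1rn rising by 1.62 from 117 and 147 CPM, against 4.31 in flox cells. The interaction term was called for Il1rn (-2.68), Tnf (0.97) and Il1b (-0.63), against 22.8% of genes. The Il1b term was lost without flox vehicle replicate 2 (-0.41), Cre vehicle replicate 2 (-0.51) or flox KLA replicate 2 (-0.53).

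With TBK1i, 4 of the 6 genes fell relative to DMSO and KLA (18.3% of genes called lower), and the median log2 difference was -0.97 against 0.01 over all genes. Il10 fell most, from 20.3 and 20.5 CPM to 2.61 and 4.51 CPM (-2.54 ± 0.21, adjusted p = 3.3e-32). Il1rn fell from 1528 and 1641 CPM to 302 and 315 CPM (-2.36 ± 0.04). Il6 fell from 770 and 932 CPM to 339 and 366 CPM (-1.27 ± 0.05, adjusted p = 9.7e-35). Il1a went from 2697 and 3219 CPM to 1779 and 1945 CPM (-0.67 ± 0.10, adjusted p = 0.0016), a call that was lost without DMSO_KLA replicate 2 (-0.53). In all 6 genes no TBK1i_KLA library reached a DMSO_KLA library, and the share of all genes without overlap was not counted. Il1b (-0.32, adjusted p = 7.2e-25) and Tnf (-0.55, adjusted p = 1.6e-61) stayed under the fold threshold, which Tnf crossed at -0.60 without DMSO_KLA replicate 1 or TBK1i_KLA replicate 2. Against DMSO vehicle all 6 genes were still called higher (26.8% of genes), Il10 by 2.30 and Il1b by 10.17. Stromal markers summed to 33.3 and 37.0 CPM in DMSO_KLA and 23.2 and 26.1 CPM in TBK1i_KLA, the T cell list (Cd4) to 1.77 and 1.74 against 5.61 and 6.09 CPM, and the dendritic cell list to 2.54 and 1.97 against 5.31 and 6.20 CPM. Their part was not tested.

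The balance between antagonist and agonist was described by the log2 ratio of Il1rn to Il1b per kilobase. It fell from 1.91 ± 1.16 (SD, n = 2) in WT vehicle to -1.44 ± 0.07 in WT_KLA. In NKO cells it fell from 4.41 ± 0.92 at vehicle, with 6 and 17 counts of Il1b, to 1.45 ± 0.06 in NKO_KLA. The antagonist transcript was thus the more abundant of the pair in both genotypes at vehicle, where the ratio was already higher in NKO cells. With KLA it was the more abundant in NKO cells and the less abundant in WT cells, groups that also differ in date stamp and sex-linked transcripts. In poly I:C-treated cells the ratio was 5.27 in WT and 4.87 in NKO. Among the other KLA groups it was -2.14 in KLA, -2.56 in RGFP966_KLA, -2.81 in Pgc1b_flox_KLA, -4.93 in Pgc1b_flox_Cre_KLA, -3.69 in DMSO_KLA and -5.73 in TBK1i_KLA. The Il10 to Tnf ratio was highest of all KLA groups in NKO_KLA too, at -2.39 against -4.57 in WT_KLA. It was -6.41 in Pgc1b_flox_KLA and -8.34 with Cre, and -7.34 in DMSO_KLA and -9.36 in TBK1i_KLA. Il1a to Il1b varied less over the KLA groups, from -3.42 in WT_KLA to -1.66 in Pgc1b_flox_Cre_KLA.

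**Figure D4:**
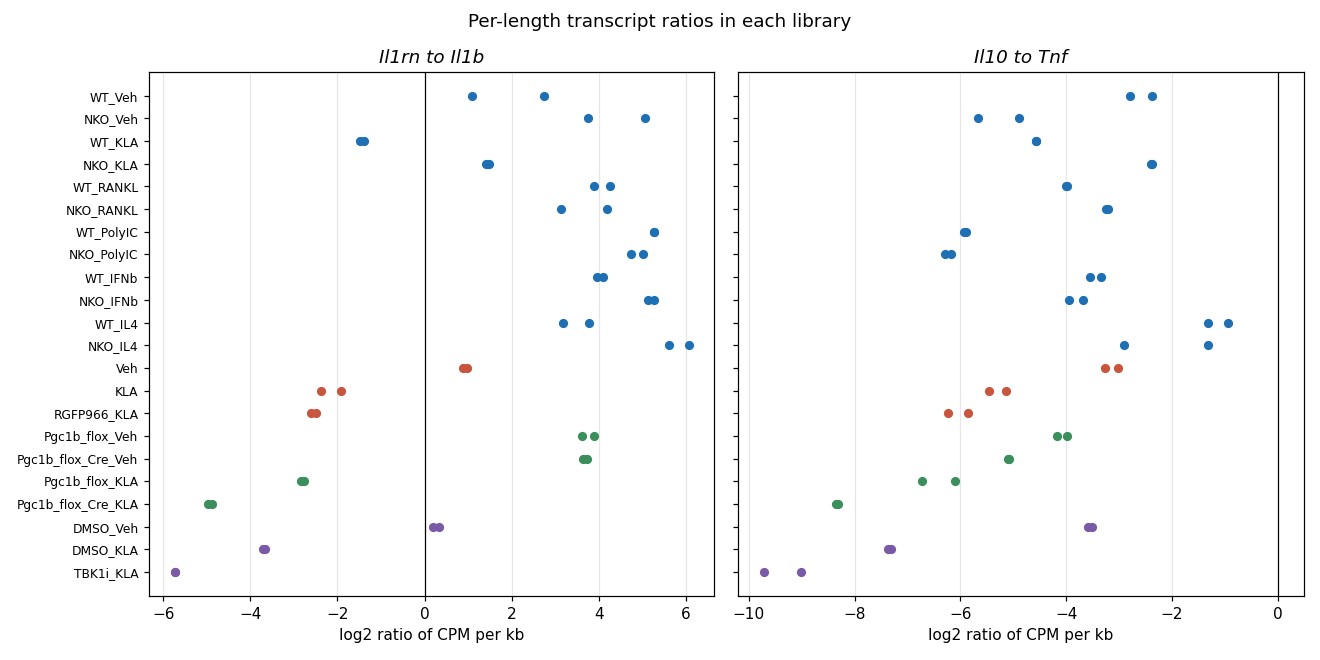
Log2 ratios of per-kilobase levels of Il1rn to Il1b and of Il10 to Tnf in every library (points) by group; 0 means equal levels and colours mark the count tables. Both ratios are higher in NKO_KLA than in any other KLA group, and lowest in TBK1i_KLA.

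Genes that receive, process or restrain these cytokines were counted from 4 related lists. Shares of all genes called stand beside the counts, and nothing particular to a list is read from them. In WT cells with KLA (25.4% of all genes called higher and 32.3% lower), the maturation and release genes rose in 7 of 7 (Nlrp3, the inflammasome sensor, by 4.54 ± 0.08 and the protease Casp4 by 3.53 ± 0.12), as did the feedback and mRNA control genes in 11 of 11 (Socs3 by 8.93 ± 0.22 and Nfkbiz by 4.55 ± 0.11). Of 10 receptors and decoys, 5 rose and 3 fell, and all 4 tested other IL1 family genes rose. In NKO against WT cells with KLA, the counts higher and lower were 1 and 2 of 10 receptors, 1 and 1 of the other IL1 family, 1 and 2 of the maturation genes, and 3 and 1 of the feedback genes, against 21% and 19% of all genes. Casp1, which cleaves pro-IL1β, was lower by 0.95 (SE 0.05) and Nlrp3 by 0.89 (SE 0.07). Irak3, a negative regulator of TLR and IL1 receptor signaling, was lower by 2.10 (SE 0.07). Il33, of the other IL1 family, was higher by 1.64 (SE 0.39). These 2 KLA groups also differ in date stamp and sex-linked transcripts. At vehicle, Socs3 (-2.50) and Nlrp3 (-1.17) were lower in NKO cells, with 4 of 11 feedback and 2 of 7 maturation genes lower, against 3.8% of all genes.

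With RGFP966, 3 of 11 feedback genes were lower, against 9.54% of all genes, including Il4ra (-1.09) and Nfil3 (-0.94). In Pgc1b_flox_Cre_KLA, 3 of 7 maturation genes and 6 of 11 feedback genes were lower and 2 feedback genes higher, against 12.9% and 13.2% of all genes. Casp1 (-1.28) and Gsdmd (-0.96), the pore-forming target of inflammatory caspases, were among the lower ones, as were Maf (-1.84 ± 0.06), a transcription factor known to drive Il10, and Il18bp (-2.21), the decoy of IL18. With TBK1i, Casp1 (-1.51), Gsdmd (-0.90), Maf (-1.66) and Il18bp (-3.98 ± 0.13) were again lower, with Il18 (-2.76 ± 0.08) and Zfp36 (-1.88 ± 0.04), which promotes decay of Tnf mRNA. In that comparison 5 of 7 maturation genes were lower, against 18.3% of all genes. Of the 11 feedback genes, 2 were lower and 1 was higher, against 18.3% and 15% of all genes.

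The genes whose levels followed each cytokine most closely were ranked by Pearson correlation of log2 (CPM + 1) over the 12 NCoR-table groups, given here as a description with the value over the other 10 groups beside it. Il1a followed Gm14023, which shares exon bases with it (r = 0.994 and 0.999), Il6 (0.989 and 0.992) and Il1b (0.987 and 0.995). Il1b followed Gm14023 (0.988 and 0.994), Il1a and Zfp558 (0.986 and 0.939). Il6 followed Shisa3 (0.994 and 0.954), Gm14023 (0.992 and 0.990) and Vgf (0.991 and 0.847). Tnf followed Nlrp3 (0.992 and 0.982), Morc3 (0.991 and 0.794) and Fam241a (0.991 and 0.818). Il1rn followed Itga5 (0.991 and 0.902), Hdac1 (0.987 and 0.982) and Hdc (0.985 and 0.879). Il10 followed Gemin7 (0.976 and 0.754), Med28 (0.976 and 0.861) and Rtca (0.974 and 0.942). The groups share tables and controls, and genes are not independent replicates.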

How the data were processed

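The deposited tables hold raw gene counts for 44 poly(A) RNA-seq libraries, which the authors made by alignment with STAR to mm10 and counting with HOMER, as the submitters' processing notes and the study's methods name them, with DESeq2 for their tests. By those methods only reads on the strand of a gene's exons were counted. Versions are not given in the sources used here. Deposited columns were matched to samples by name, and 0 count columns were unmatched. Samples were grouped by their titles, and each table was fitted whole in edgeR 4.0.16 (R 4.3.3): TMM scaling, filterByExpr, robust quasi-likelihood fit, 2-sided tests and Benjamini-Hochberg adjustment over all 12196 to 13407 genes tested. Calls needed an adjusted p under 0.05 together with a change over 1.5-fold. Levels in CPM were TMM-scaled, and values with ± are SD for levels and SE for log2 changes. No exact permutation test was run, since 2 libraries against 2 cannot reach a p under 0.333. Intervals of ratios are exact binomial at 95%, and cover counting error only. The 6 genes, the related lists and the markers were chosen with earlier results of these data known. Genes named from the related lists are a selection of their called members, not always those with the largest change. For the correlations, the 3 genes of highest value were named. Scripts were tested on simulated data. Scaling, filters, DESeq2 1.42.0, the samples fitted, a replicate block and single libraries were varied.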

Additional observations from a re-analysis of the deposited data

Results flagged for a closer look

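The responses of NKO and WT cells to a ligand, or of Pgc1b flox cells with and without Cre to KLA, were compared by an interaction term (log2 scale), and 11 terms over the 6 genes were called. With KLA, the term was -0.7687 for Tnf and 4.017 for Il10. With RANKL it was 3.468 for Il1b, 1.062 for Tnf and 4.414 for Il10. With poly I:C it was -0.7886 for Il1rn and 2.282 for Il10, and with IFNβ 2.381 for Il10. Between the Pgc1b genotypes with KLA it was -0.6305 for Il1b, -2.683 for Il1rn and 0.9747 for Tnf. The NKO terms share the vehicle libraries of both genotypes, where NKO vehicle held 3 and 5 counts of Il10. In the KLA terms, ligand cannot be told apart from date stamp and, in NKO cells, from sex-linked transcripts. In the RANKL terms it cannot be told apart from date stamp and time. With single libraries left out, the IFNβ term of Il10 was 2.22 to 2.61 and the Pgc1b term of Il1b -0.84 to -0.41. Groups of 2 libraries are too small for a test of single outlying libraries.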

How the results depend on the processing

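No call on the 6 genes changed direction under any alternative run. Of the counts of genes called per comparison, 213 stayed within 1.5 times and 8 moved under other settings, and 137 and 15 when single libraries were left out. For NKO IL4 against vehicle, the count of 1 became 2 with DESeq2 or with adjusted p alone. For NKO against WT at vehicle, the 2 became 1 with only the compared groups fitted, and at RANKL 4 with that setting or DESeq2. For RGFP966 it went from 0 to 1 with DESeq2 or its size factors and to 6 with adjusted p alone. Leaving out single libraries gave 2 to 4 genes for WT RANKL, 1 to 2 for NKO IL4, 1 to 3 for NKO against WT at vehicle, 1 to 2 at poly I:C and 1 to 2 at IL4, and 0 to 1 for RGFP966. For interactions it gave 2 to 4 (KLA), 2 to 4 (poly I:C), 0 to 3 (IFNβ) and 0 to 1 (IL4).

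DESeq2 gave no adjusted p for Il10 in the interaction with IFNβ and called Il1b there instead. Without a filter, Il1b in WT with IFNβ was not called (adjusted p = 0.062). Same-numbered libraries of different groups did not deviate together over the genes tested (correlation -0.083 to 0.072). This cannot tell whether they came from the same animal, which the labels do not say. A replicate block ended the call of Il6 in NKO against WT at poly I:C (adjusted p = 0.058) and made that of Il1a at RANKL (adjusted p = 0.045). Il1a in NKO against WT at RANKL was also called without a filter (adjusted p = 0.022), with a filter at 5 CPM (0.042) and with DESeq2 (0.035). With only the compared groups fitted, the Il1b calls were lost in WT with IFNβ (adjusted p = 0.30) and IL4 (0.15) and in NKO against WT at vehicle (0.16), as was that of Il6 at poly I:C (0.059), and the filter left out Il6 in 12 comparisons. Depth limits Il6 outside the KLA and poly I:C groups, where libraries held at most 6 counts.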
